A study of Mus musculus with 45 samples.

Results

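Primitive endoderm is the extraembryonic lineage that separates from the epiblast inside the blastocyst and later forms visceral and parietal endoderm. Its regulators act in sequence: GATA6 opposes NANOG in the inner cell mass, FGF signalling through ERK favours GATA6, and SOX17, GATA4 and SOX7 follow as the cells commit and sort to the surface of the blastocyst cavity. Embryonic stem cells are derived from the epiblast side of this choice and keep these genes low. The group described here holds 8 such genes of the 55401 in the deposited gene tables, chosen by name. They are the transcription factors Gata4, Gata6, Sox7, Sox17 and Foxa2, the receptor tyrosine kinase gene Pdgfra, the endocytic adaptor gene Dab2 and the laminin beta-1 chain gene Lamb1.

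RNA was sequenced from 45 cultures or sorted fractions of mouse embryonic stem cells (mESCs), which form 15 groups of 3. In 11 groups both copies of Ehmt2, which encodes the H3K9 methyltransferase EHMT2 (G9a), carried a dTAG degron and an mCherry reporter (EHMT2-dTAG-mcherry, strain BL6/129), so that the compound dTAG removes the protein. The DMSO controls carried the same allele. A time course compared DMSO and dTAG at 24 h and at 7 d (12 libraries), and a washout experiment compared 15 d of DMSO, 15 d of dTAG and a Recovery group with 7 d of dTAG followed by 8 d of DMSO (9 libraries); both used the 3 clones E2-17, E2-20 and E2-K71. Another experiment used the same allele with a MERVL-GFP reporter and, after 72 h of DMSO or dTAG, sorted GFP-positive 2-cell-like cells (2CLC) from GFP-negative mESC (12 libraries, low input, clones not named in the labels). The Dppa4 experiment used WTJ1 cells (WT) and DPPA4KO cells (KO), which lack the 2-cell gene activator Dppa4, each with DMSO or the EHMT2 and EHMT1 inhibitor UNC0638 for 48 h (12 libraries). Per the study's methods its replicates were 3 clonal lines, so a p-value there measures the spread between these libraries, and the labels do not name the clone behind each.

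The EHMT2-dTAG tables hold the authors' mean for each group, so these values have no error and no test, and clones cannot be separated. A comparison is then given as the log2 ratio of 2 group means after adding 1 to each, and is called past the fold at 2-fold or more, among genes whose larger mean is at least 10 normalized counts. The Dppa4 experiment holds a value for every library, with 8399885 to 12710949 reads over genes, and was tested with limma. Its KO libraries held 0 Dppa4 reads in 6 of 6. The degron acts on protein, so the Ehmt2 transcript is no check of the dTAG labels. In the Dppa4 experiment KO UNC0638 library 3 stood apart, with a chi-square per degree of freedom of 55.5 and 40.8 against the other KO UNC0638 libraries and 12.2 to 26.7 within the other 3 groups. The cells grew on mouse fibroblast feeders, and the feeder markers Col1a1 and Thy1 were detected in all 15 groups. Lum, one of the lowest of the feeder markers, stayed at a mean of 1.82 or below in the EHMT2-dTAG groups. Each experiment was normalized separately, so levels are compared within an experiment. In bulk RNA, a lower share of expressing cells and less RNA in each cell cannot be told apart.

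The 8 genes were expressed at low levels next to the pluripotency gene Pou5f1. In counts per kilobase of exon after scaling each group to the same sum (CPM per kilobase), Pou5f1 ranged from 128.2 to 599.1 over the 15 group means, each scaled within its own table. On the same per-length scale, the DMSO 24h mean was 9.98 for Lamb1, 1.08 for Dab2, 1.07 for Gata4, 0.323 for Pdgfra, 0.288 for Sox7, 0.253 for Gata6, 0.153 for Sox17 and 0.127 for Foxa2. Lamb1 stood above the other 7 in unsorted EHMT2-dTAG cells. In sorted DMSO mESC the order differed, with Gata4 at 2.29 above Lamb1 at 1.66, and Foxa2 again lowest at 0.0492. The differences between neighbours in these orders have no replicate error in the files used here.

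In the GENCODE vM21 annotation of GRCm38 (mm10), Gata4 lies at chr14:63198922-63271692 on the minus strand and Sox7 at chr14:63943673-63950732 on the plus strand of the same chromosome. Sox17 lies at chr1:4490931-4497354, Foxa2 at chr2:148042877-148046969, Pdgfra at chr5:75152292-75198215, Dab2 at chr15:6299788-6440712 and Lamb1 at chr12:31265234-31329644. Start windows from RefSeq (GRCm38.p6; 250 bases before to 50 after the start) matched 4 members with 7 starts: Foxa2 (3 starts), Dab2 (2), Pdgfra (1) and Lamb1 (1). Since 2 members are GATA factors, the windows were searched on both strands for the GATA words AGATAA and TGATAA, which 18.6% of 32851 windows of this length held. The words were found at 1 Foxa2 start and 1 Dab2 start, and the other 5 windows held none. These 2 windows are shown because they hold those words, in capitals, 5′ to 3′ on the gene's strand.
Foxa2, start 3, chr2:148045415-148045714, minus strand: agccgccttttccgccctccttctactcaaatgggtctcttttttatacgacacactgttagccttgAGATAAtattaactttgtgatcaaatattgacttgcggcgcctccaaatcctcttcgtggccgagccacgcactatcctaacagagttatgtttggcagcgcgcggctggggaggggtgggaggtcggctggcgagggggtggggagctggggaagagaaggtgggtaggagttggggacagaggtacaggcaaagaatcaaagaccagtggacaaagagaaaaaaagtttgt
Dab2, start 1, chr15:6299539-6299838, plus strand: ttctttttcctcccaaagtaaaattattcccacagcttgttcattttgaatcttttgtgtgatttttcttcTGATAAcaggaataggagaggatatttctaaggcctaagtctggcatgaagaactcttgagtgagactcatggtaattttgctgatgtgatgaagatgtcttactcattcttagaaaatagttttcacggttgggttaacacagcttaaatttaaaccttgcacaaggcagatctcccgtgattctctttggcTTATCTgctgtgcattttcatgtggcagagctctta
The Foxa2 word AGATAA began 183 bases before that start. In the Dab2 window TGATAA began 179 bases before the start, and the reverse complement of AGATAA began 14 bases after it. The FOXA word TGTTTAC, held by 3.65% of all windows, and the SOX words ACAATGG and ACAATAG, held by 5.95%, were in none of the 7. A match describes letters, and binding was not measured in the data used here.

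After 24 h of dTAG, which asks what early loss of EHMT2 does, all 8 regulators had a higher mean than in DMSO, and over all genes that reached the minimum 50.7% were higher. Gata6 and Foxa2 were past the fold (2 of 8 members), against a background of 3.58% of 18451 genes that were higher past the fold. The median log2 ratio of the members was 0.61, and that of all genes was 0.01.

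Gata6, the earliest of the lineage factors, had an authors' mean of 23.8 normalized counts in DMSO 24h and 52.2 in dTAG 24h, a log2 ratio of 1.10. Foxa2, a forkhead factor of endoderm, went from 4.36 to 10.3 (log2 ratio 1.08), so it passed the minimum through the dTAG group alone. Dab2, which the endoderm uses for uptake and surface polarity, had means of 115 and 222, a log2 ratio of 0.95 that lay just under the fold. Gata4, which maintains the lineage with Gata6, had means of 60.1 and 103 (log2 ratio 0.77).
The remaining members differed less between these groups. Pdgfra, a receptor that marks primitive endoderm precursors, had means of 46.8 and 64.5. The SOX factors Sox7 and Sox17 had means of 13.7 and 17.1, and of 10.6 and 12.7. Lamb1, whose protein is a chain of the basement membrane laminins, had means of 1430 and 1746, the smallest but one of the log2 ratios at 0.29, with Sox17 at 0.25.

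At 7 d of dTAG no member was past the fold in either direction, with a background of 5.38% of 18602 genes higher past the fold. Of the 7 members that reached the minimum, 3 were higher and 4 lower, with a median log2 ratio of -0.08 beside 0.01 over all genes. Pdgfra had means of 49.5 in DMSO 7d and 75.8 in dTAG 7d (log2 ratio 0.61), and Sox7 of 12.9 and 20.2 (0.60). Gata6 was also higher, at 31.9 and 38.1 (0.25). Sox17 went the other way, from 13.8 to 6.56 (log2 ratio -0.96, and -1.01 after scaling to equal summed counts). Gata4 had means of 88.0 and 71.02, Dab2 of 173 and 165 and Lamb1 of 1591 and 1483, and Foxa2 was under the minimum at 6.69 and 4.24.

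The DMSO groups of the time course were not level. From DMSO 24h to DMSO 7d, 6 of the 7 members that reached the minimum were higher, beside 50.2% of all genes. The members' median log2 ratio was 0.35 and none was past the fold, beside a background of 0.862% of 18204 genes higher past the fold. Dab2 had the largest log2 ratio of the members between the DMSO groups, 0.59, then Gata4 at 0.54, and Sox7 was lower at -0.08. Both dTAG comparisons were therefore made against the DMSO group of their own time, and neither tests a change from 24 h to 7 d.

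**Figure D1:**
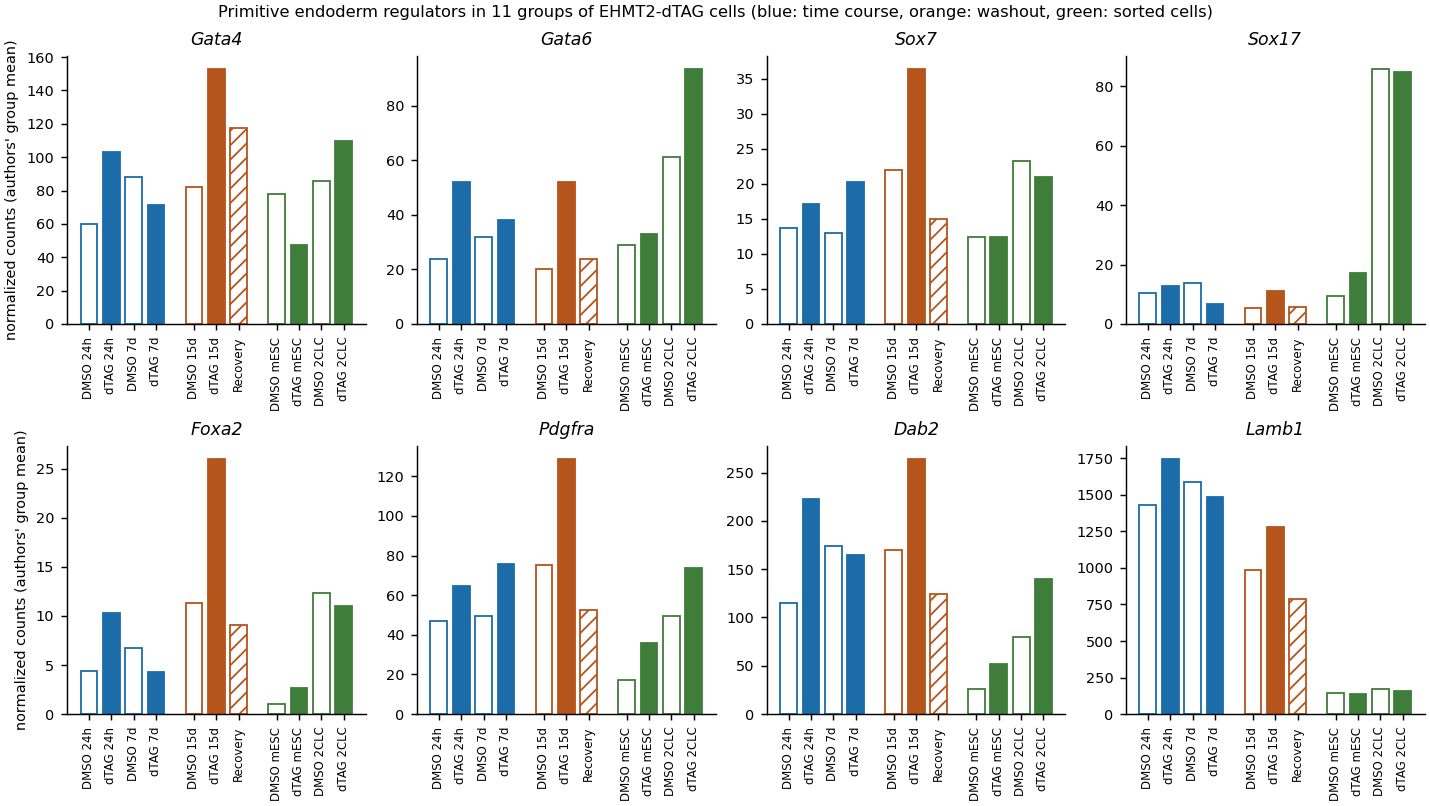
Bars give the authors' mean normalized count of each regulator (vertical axis, from 0, own scale in each panel) in the 11 EHMT2-dTAG groups, with open bars for DMSO, filled bars for dTAG and a hatched bar for Recovery, coloured blue for the time course, orange for the washout and green for the sorted cells. The dTAG 24h and dTAG 15d bars stand above their DMSO bars for all 8 genes, and Sox17 reaches 85.8 and 84.8 in the 2CLC groups.

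Other endoderm genes were looked at with the same comparison. Of the 16 visceral endoderm markers, which mark the derivative that takes up and carries nutrients, 10 reached the minimum at 24 h and 5 of these were higher past the fold and none lower (median log2 ratio 1.04). Cubn, an uptake receptor that works with Dab2, had means of 49.9 in DMSO and 174 in dTAG (log2 ratio 1.78), and Apoa1 of 4.24 and 14.7 (1.58). Apoa1 encodes an apolipoprotein. Lrp2, another uptake receptor, had means of 141 and 329 (1.22). At 7 d, 9 visceral endoderm markers reached the minimum and 0 were past the fold, with a median log2 ratio of 0.008 beside 0.013 over all genes. The late yolk sac genes Afp and Ttr were at a mean of 0.629 or less in all 11 groups. Of the 8 parietal endoderm genes, which mark the derivative that lays down a thick basement membrane, 1 was higher past the fold at 24 h (Srgn, 44.2 to 92.2), with a median log2 ratio of 0.19 and summed means of 1003 in DMSO and 975 in dTAG. At 7 d 3 of the 8 were higher past the fold, the keratin genes Krt8 (224 to 670) and Krt18 (217 to 590) and Thbd (197 to 486). At 15 d 1 of 8 was (Srgn, 40.7 to 123.4), and in DMSO 2CLC against DMSO mESC 3 of 6 were (Krt8, Krt18 and Srgn). Trophoblast genes also differed at 7 d: of the 6 that reached the minimum, 2 were higher past the fold and 1 lower. The 2 were Hand1 (6.31 to 82.1) and Gata3 (4.77 to 16.9), which passed the minimum through the dTAG group. The lineage behind the keratin differences was not tested. Of the 11 other basement membrane genes, 0 were past the fold at 24 h and the median was 0.05. Of the 10 FGF and ERK pathway genes, 1 was higher past the fold, the receptor gene Fgfr2, with means of 48.8 and 99.7.

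Feeder markers also differed between these groups. Of the 11 of 12 feeder markers that reached the minimum, 1 was higher past the fold (Acta2, 117 to 371) and 1 lower (Dcn, 20.5 to 1.13), and their summed mean was 2139 in DMSO 24h and 2880 in dTAG 24h. At 7 d, 3 of the 10 that reached the minimum were higher past the fold, and the sums were 1967 and 3362. The part of feeder RNA in the members' values was not tested.

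The washout experiment sets 15 d of dTAG beside 7 d of dTAG followed by 8 d of DMSO. Recovery cells did not pass through 15 d of dTAG, so persistence of the 15 d difference was not measured. At 7 d of dTAG in the time course, the members' median log2 ratio was -0.08. All 8 regulators had a higher mean in dTAG 15d than in DMSO 15d, and 47.7% of all genes that reached the minimum were higher. Gata6 and Foxa2 were again past the fold, beside a background of 5.48% of 17869 genes higher past the fold. The members' median log2 ratio was 0.83, and that of all genes was -0.02. In the Recovery group all 8 were lower than in dTAG 15d, whereas 54.1% of all genes that reached the minimum were higher. Of the 8, 5 were lower past the fold, beside a background of 6.99% of 17936 genes lower past the fold. Among the 5, Foxa2 was at 9.13 in Recovery and reached the minimum through dTAG 15d alone. The members' median was -1.09 beside 0.035 over all genes. These comparisons share the dTAG 15d group, so a high dTAG 15d mean enters both.

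Gata6 had means of 20.1 in DMSO 15d, 51.9 in dTAG 15d and 23.7 in Recovery, log2 ratios of 1.32 for dTAG over DMSO and -1.10 for Recovery over dTAG. Foxa2 had means of 11.3, 26.0 and 9.13 in the same order (1.14 and -1.42). Recovery over DMSO 15d was 0.23 for Gata6 and -0.28 for Foxa2 on the log2 scale, nearer to 0 than either dTAG ratio.
Pdgfra had means of 75.4, 129 and 52.4, Dab2 of 170.3, 264 and 125, and Sox7 of 22.0, 36.4 and 15.0. These 3 genes were highest in dTAG 15d and lower in Recovery than in DMSO 15d. Sox17 had means of 5.30, 11.0 and 5.74, and Lamb1 of 989, 1283 and 790.4. Gata4 had means of 82.2, 153 and 117, and Recovery was above DMSO 15d by 0.51 on the log2 scale.

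Between Recovery and DMSO 15d no member was past the fold in either direction, beside a background of 1.25% of 17365 genes lower past the fold. Of the 7 that reached the minimum, 2 were higher (Gata4 and Gata6) and 5 lower, with a median log2 ratio of -0.32 beside -0.01 over all genes. At 15 d of dTAG, 4 of the 10 visceral endoderm markers that reached the minimum were higher past the fold and none lower, with Dkk1 at 8.71 and 39.8 and Hnf4a, a regulator of visceral endoderm, at 17.2 and 41.8. In Recovery against dTAG 15d, 4 of the 11 basement membrane genes were lower past the fold, among them the collagen IV genes Col4a1 (1706 to 738) and Col4a2 (1016 to 399), whose proteins form the network that laminin joins.
The feeder markers moved with these groups too. Their summed mean was 4630 in DMSO 15d, 5641 in dTAG 15d and 1920 in Recovery, and 9 of the 10 that reached the minimum were lower past the fold in Recovery than in dTAG 15d (Col1a1 from 886 to 136). Against DMSO 15d, 7 of 10 were lower past the fold in Recovery, where the members had none. Fibroblasts also express Pdgfra and Lamb1, and the part of feeder RNA in the Recovery values was not tested.

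**Figure D2:**
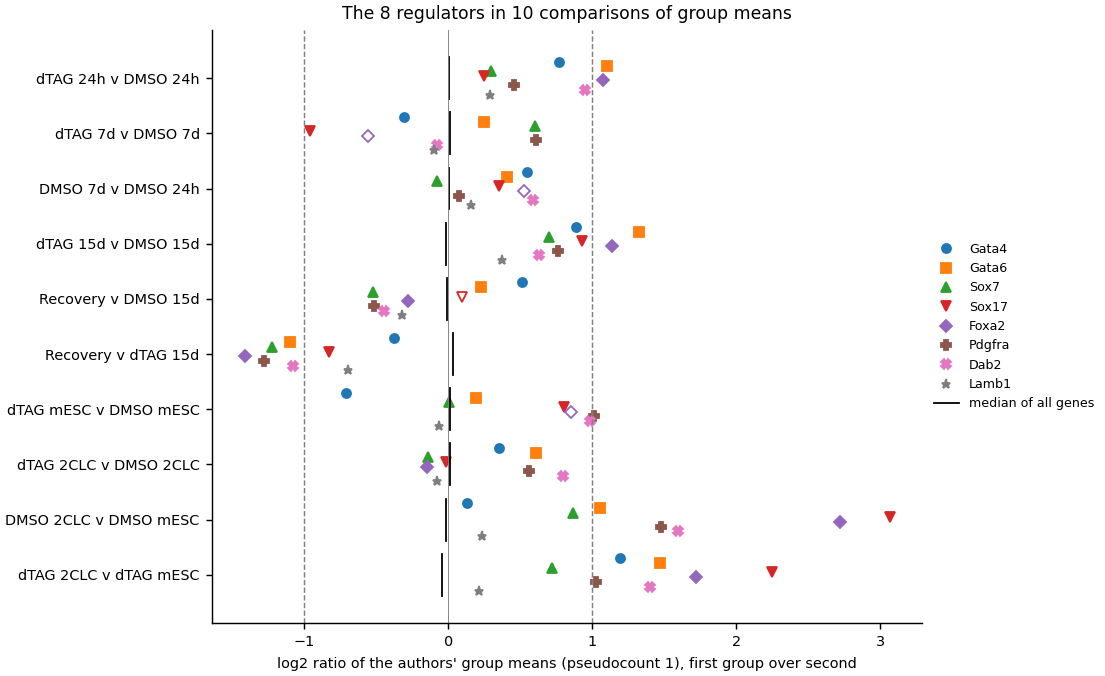
Each point is the log2 ratio of the authors' group means of 1 regulator (horizontal axis; pseudocount 1, first group over second) in the 10 comparisons of the vertical axis, hollow where neither mean reaches 10; dashed lines mark 2-fold and black bars the median of all genes. All 8 points lie to the right of 0 for dTAG 24h, dTAG 15d and, as deposited, both comparisons of 2CLC with mESC (scaling to equal sums puts Gata4 at -0.02 in DMSO and Lamb1 at -0.19 in dTAG), and to the left for Recovery v dTAG 15d, and points lie on both sides for dTAG 7d v DMSO 7d.

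The sorted cells separate 2CLC, a rare state that expresses genes of the 2-cell embryo, from mESC of the same cultures. In DMSO cultures all 8 regulators had a higher mean in 2CLC than in mESC, beside 48.7% of all genes that reached the minimum. After scaling to equal sums, Gata4 was at -0.02 on the log2 scale. Of the 8, 5 were past the fold, beside a background of 17.0% of 18303 genes higher past the fold. Sox17 and Foxa2 were under 10 in DMSO mESC and reached the minimum through 2CLC alone, so they add no support to that count. In dTAG cultures 8 were higher (Lamb1 was at -0.19 after scaling to equal sums), beside 47.4% of all genes. Past the fold were 6, beside 16.0% of 18244 genes, with Foxa2 again reaching the minimum through 2CLC alone. The members' medians were 1.27 and 1.30 on the log2 scale, and those of all genes -0.02 and -0.04. Scaling each group to equal summed gene counts lowered the median of all genes by 0.152 in DMSO and by 0.399 in dTAG, and then 4 members were past the fold in each, without Gata6 (0.91) in DMSO and without Gata4 (0.79) and Pdgfra (0.63) in dTAG.

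Sox17, which drives endoderm commitment, differed most of the 8. Its means were 9.36 in DMSO mESC, 85.8 in DMSO 2CLC, 17.1 in dTAG mESC and 84.8 in dTAG 2CLC, log2 ratios of 3.07 and 2.25 between the states. Both 2CLC means were close to each other, and the mESC means were far below them.
Foxa2 had means of 1.02, 12.3, 2.64 and 11.0 in the same order, log2 ratios of 2.72 and 1.72, and it passed the minimum through the 2CLC groups. Dab2 had means of 25.9, 80.0, 52.2 and 139, log2 ratios of 1.59 and 1.40. Pdgfra had means of 17.2, 49.6, 35.7 and 73.8 (1.47 and 1.02). For Dab2 and Pdgfra the dTAG mean was above the DMSO mean in each state, unlike for Sox17.
Gata6 had means of 28.9, 61.1, 33.2 and 93.5 (1.06 and 1.47), past the fold in both cultures. Gata4 had means of 78.2, 85.7, 47.5 and 110 (109.7 before rounding), so the states differed by 0.13 in DMSO and by 1.19 in dTAG, where the mESC mean was lowest. Sox7 had means of 12.4, 23.3, 12.4 and 21.0, under the fold in both. Lamb1 had means of 144, 169, 137 and 160 (159.6), log2 ratios of 0.23 and 0.21.

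Within a sorted state few members differed past the fold between dTAG and DMSO. In mESC, 1 of the 7 that reached the minimum was higher past the fold, Pdgfra at 1.01, with Dab2 at 0.99 just outside, beside a background of 5.93% of 17142 genes. Gata4 was lower there, at -0.71 on the log2 scale. Feeder markers differed in the same direction as Pdgfra, which fibroblasts express: 7 of the 10 that reached the minimum were higher past the fold with dTAG in mESC (median log2 ratio 1.25) and 7 of 10 in 2CLC (1.27). Their part in these values was not tested. In 2CLC, 0 of 8 were past the fold, beside a background of 5.99% of 18281 genes, with Dab2 at 0.79, Gata6 at 0.61 and Pdgfra at 0.56 the highest. In mESC 5 of 7 were higher, beside 51.0% of all genes, and in 2CLC 4 of 8, beside 50.9%. The members' median log2 ratios were 0.19 and 0.17.

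The other endoderm lists were mixed between the sorted states. Of 11 basement membrane genes, 0 were higher and 1 lower past the fold in DMSO 2CLC (Nid1, 1155 to 522), with a median log2 ratio of -0.42. Of the 7 visceral endoderm markers that reached the minimum, 3 were higher past the fold, Dkk1 (0.617 to 15.6), Cited1 (4.83 to 36.0) and Cubn (1.89 to 14.4). These 3 were under 10 in DMSO mESC and passed the minimum through 2CLC, so they had to differ and their count is no support. Of the 10 FGF and ERK genes, 3 were higher and 4 lower past the fold. Among the higher were Fgfr2, the receptor of primitive endoderm (26.0 to 81.2), and among the lower the transcription factor gene Etv4, a target of ERK signalling (786 to 327).
Of 10 pluripotency genes, 4 were lower past the fold and none higher (Klf4, 3921 to 1257), beside 9.42% of all genes lower past the fold. Of these 10, 8 had a lower mean in DMSO 2CLC and 2 a higher one. The 2 included Nanog, the most abundant of the list there (6350 to 8924). All 8 of the 2-cell genes were higher past the fold. Feeder markers also differed between the sorted states: 3 of the 10 that reached the minimum were higher past the fold in DMSO 2CLC, with Thy1 at 144 and 561 and Fbn1 at 26.5 and 90.3, and the summed mean was 533 in DMSO mESC, 1225 in DMSO 2CLC, 1013 in dTAG mESC and 2221 in dTAG 2CLC. Lum, the lowest of the list, was at 0.514 or less in these 4 groups. Per the study's methods, live cells were sorted for high (2CLC) or low (mESC) GFP fluorescence. The part of feeder RNA in the sorted values was not tested. Of the 6 trophoblast genes that reached the minimum, 2 were higher and 1 lower past the fold, with 3 higher and 3 lower in all. Gata3, another GATA factor, was at 1.25 and 37.2 and passed the minimum through 2CLC, and Krt7 was at 11.9 and 3.34.

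**Figure D3:**
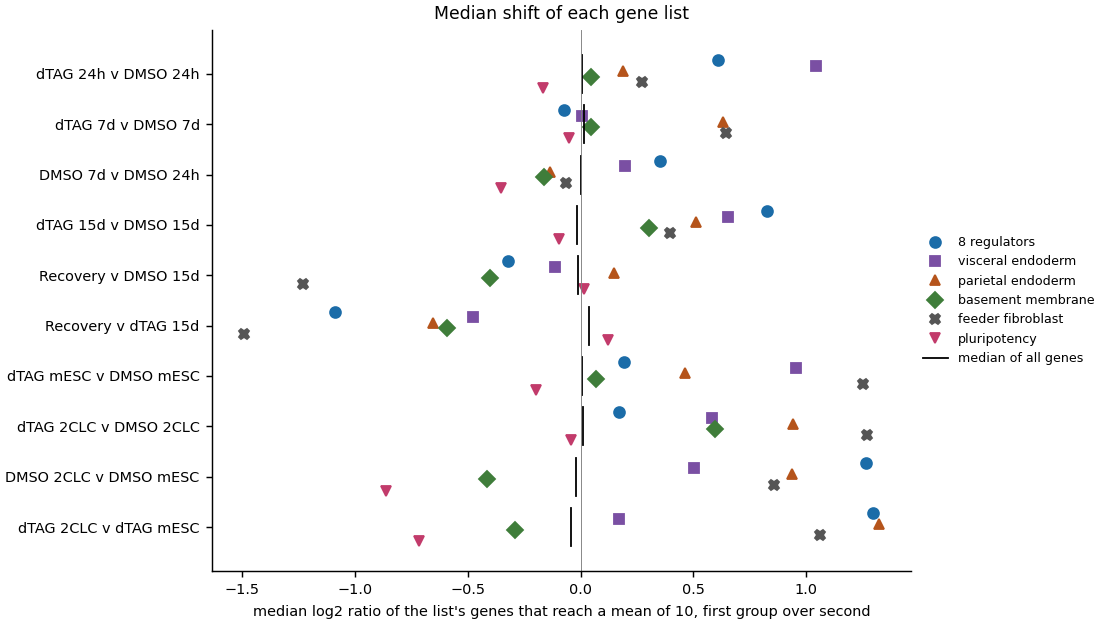
Points give the median log2 ratio (horizontal axis) of the 8 regulators and of 5 other gene lists in the 10 comparisons of group means (vertical axis), over genes whose larger mean is at least 10, with a black bar for the median of all genes. The regulators lie at 0.61 for dTAG 24h, 0.83 for dTAG 15d, -1.09 for Recovery v dTAG 15d and 1.27 and 1.30 for 2CLC over mESC, and feeder markers lie at -1.49 for Recovery v dTAG 15d.

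The Dppa4 experiment asks whether EHMT2 inhibition acts on genes when DPPA4 is missing, and is the one with a value per library. Sox17 and Foxa2 failed the filter on low counts, so 6 of the 8 members were tested among 17258 genes. A gene was called at an adjusted p under 0.05 (limma, Benjamini-Hochberg over all genes tested) and a difference of at least 1 on the log2 scale. Lamb1 was called lower in KO than in WT under UNC0638, and no other member passed in any of the 5 contrasts.

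Lamb1 had 335, 261 and 240 (239.5) normalized counts in the 3 WT DMSO libraries, 308, 367 and 283 in WT UNC0638, 152, 169 and 172 in KO DMSO, and 158, 138 and 133 in KO UNC0638. The means were 278 ± 50.2, 319 ± 43.4, 164 ± 10.9 and 143 ± 13.5 (SD, n = 3). Each KO library was below each WT library. Under UNC0638 the KO v WT difference was -1.15 ± 0.20 on the log2 scale (SE; n = 3 per group; limma adjusted p = 0.00494), a 2.22-fold lower level, and 1 of 6 tested members was called lower beside a background of 2.31% of genes. It was called under every alternative tried, with adjusted p up to 0.0444 (without WT UNC0638 library 2), and was -1.10 without KO UNC0638 library 3. Under DMSO the difference was -0.75 ± 0.20 (adjusted p = 0.0375, limma), 1.68-fold, under the size needed for a call, so 0 of 6 were called lower beside a background of 3.10%. Leaving out 1 library moved that adjusted p between 0.0244 (without KO UNC0638 library 3) and 0.135 (without KO DMSO library 1).

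Dab2 had 46.5, 93.5 and 38.5 in WT DMSO, 74.0, 108 and 65.5 in WT UNC0638, 14.7, 64.2 and 34.8 in KO DMSO, and 11.0, 28.0 and 30.6 in KO UNC0638. The UNC0638 groups of the 2 genotypes did not overlap, and the DMSO groups did. The difference of KO from WT was -1.88 ± 0.52 under UNC0638 (limma adjusted p = 0.0513) and -0.76 ± 0.52 under DMSO (adjusted p = 0.4), and neither passed. Without KO DMSO library 1 or 2 the adjusted p under UNC0638 was 0.0336 or 0.042 (limma), and without WT UNC0638 library 2 it was 0.204. Dab2 was also called with the replicate number as a block over all 4 groups (limma adjusted p = 0.0135), with DESeq2 (0.0145), with a pseudocount of 5 (0.0405) and with the 2 groups alone (0.0399), and not with edgeR (0.0561).

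Gata4 had 31.4, 61.5 and 25.4 in WT DMSO, 16.7, 57.9 and 25.5 in WT UNC0638, 75.3, 86.6 and 33.7 in KO DMSO, and 57.0, 39.8 and 48.0 in KO UNC0638. The genotypes overlapped under both treatments, with differences of 0.71 and 0.69 (limma adjusted p = 0.4 and 0.452). Gata6 had 8.14, 3.69 and 6.12 in WT DMSO, 15.0, 20.6 and 7.98 in WT UNC0638, 16.6, 6.11 and 0 in KO DMSO, and 6.44, 4.30 and 7.86 in KO UNC0638. These values rest on 0 to 22 reads per library.
Sox7 had 12.8, 2.46 and 6.99 in WT DMSO, 28.2, 14.02 and 2.40 in WT UNC0638, 22.5, 15.3 and 15.1 in KO DMSO, and 4.60, 12.9 and 11.4 in KO UNC0638, with 2 to 32 reads per library. KO DMSO lay above WT DMSO in every library, a difference of 1.337 ± 0.78 that did not pass (limma adjusted p = 0.314). Pdgfra had 33.7, 67.7 and 29.7, then 44.0, 49.5 and 29.5, then 21.5, 38.7 and 26.7, then 57.9, 51.6 and 18.3 in the same order of groups, all of which overlapped.

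Sox17 had 8.14, 11.1 and 9.62 in WT DMSO, 7.04, 7.48 and 14.4 in WT UNC0638, 0.978, 8.15 and 0 in KO DMSO, and 2.76, 0 and 0 in KO UNC0638. Under UNC0638 the WT and KO libraries did not overlap, and an exact two-sided permutation test gave p = 0.1, the smallest that 3 against 3 allows. Foxa2 had 0, 6.15 and 1.75, then 3.52, 3.74 and 9.58, then 0, 7.13 and 0, then 0.92, 0 and 0, with p = 0.1 for the same comparison in the same exact permutation test. A library with 0 reads allows up to 3 reads, which is 2.40 to 3.69 normalized counts here, so levels under this are not told from 0. These floors and the read counts cover counting error only.

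The response to UNC0638 itself was not detectable for any member. In WT, 0 of 6 tested members were called, beside a background of 0% of 17258 genes (limma; 1504 genes had an unadjusted p under 0.05, edgeR called 0 and DESeq2 13). The WT libraries deviated in pairs by replicate number, and with the number as a block within WT limma called 187 genes and again 0 members. The WT differences were 1.11 for Gata6 (95% interval -0.77 to 3.00), 0.65 for Sox7 (-0.99 to 2.30), 0.54 for Dab2 (-0.56 to 1.65), 0.20 for Lamb1 (-0.23 to 0.63), -0.03 for Pdgfra (-1.02 to 0.97) and -0.32 for Gata4 (-1.34 to 0.71), in the fit without pairs. With the block the intervals were -0.32 to 2.54 for Gata6, -1.01 to 2.32 for Sox7, -0.03 to 1.11 for Dab2, -0.13 to 0.54 for Lamb1, -0.75 to 0.69 for Pdgfra and -1.11 to 0.48 for Gata4, so that a 2-fold difference in either direction lay outside those of Lamb1 and Pdgfra. Gata6 and Dab2 were higher with UNC0638 in 3 of 3 WT pairs, and neither passed (limma adjusted p = 0.303 and 0.21 with the block). Sox7, Foxa2 and Lamb1 were higher in 2 of 3 pairs, and Gata4, Sox17 and Pdgfra in 1 of 3. The share of all genes higher in 3 of 3 pairs was not counted, so these counts show no response.
In KO, 0 of 6 were called (limma; edgeR and DESeq2 called 0 members too), beside a background of 0.464% of genes, with estimates from -0.89 for Sox7 to 0.49 for Gata6. The difference of the response between KO and WT was called for 0 of 6 members and for 0% of genes (1076 had an unadjusted p under 0.05, and edgeR and DESeq2 called 0 each). It was -1.12 ± 0.74 for Dab2 and -0.41 ± 0.29 for Lamb1 (limma adjusted p = 0.781 and 0.79).

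**Figure D4:**
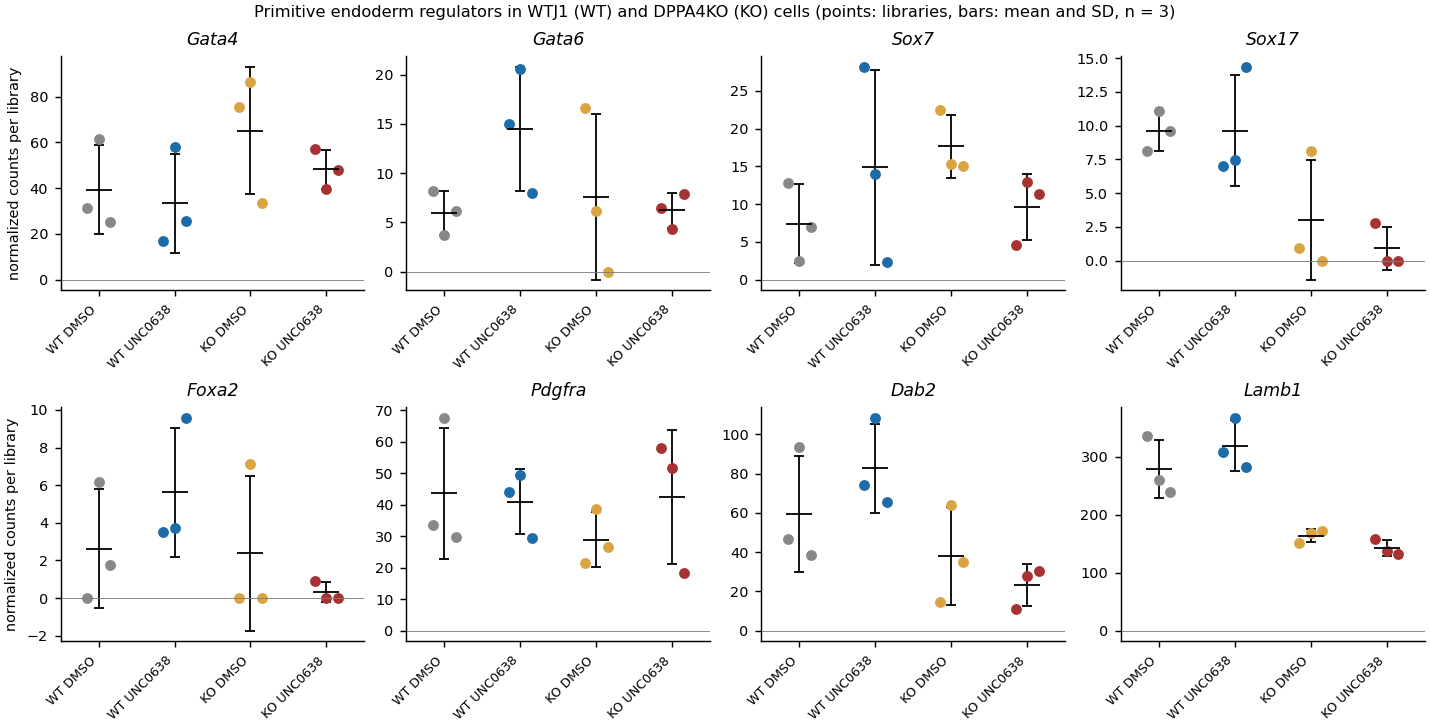
Points give the normalized counts (vertical axis, own scale in each panel) of each regulator in the 12 libraries of the Dppa4 experiment, with a horizontal bar for the mean and whiskers for the SD of the 3 libraries of a group. The KO libraries of Lamb1 lie between 133 and 172 and the WT libraries between 240 (239.5) and 367, while the groups of Gata4 and Pdgfra overlap.

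Other lists gave the setting of the KO cells. Of the 6 tested visceral endoderm markers, Hnf4a rose in KO against WT by 3.00 ± 0.51 on the log2 scale under DMSO (limma adjusted p = 0.0034), and Cited1 and Lefty1 fell (-3.39 and -1.73, adjusted p = 0.0271 and 0.0291), so the list did not move one way. Under UNC0638, Hnf4a rose and Lrp2 fell. Of 11 tested basement membrane genes, 0 were called in either contrast, with median differences of -0.13 and -0.17. Of 10 FGF and ERK genes, 8 had a positive difference under DMSO (median 0.23) and Fgfr2 was the 1 called, falling by 1.31 on the log2 scale (limma adjusted p = 0.0429). Spry4, a feedback inhibitor of the pathway, was at 0.77, with an adjusted p of 0.0209 (limma) and under the size needed. Of 7 tested parietal endoderm genes, 5 had a negative difference under DMSO and 7 under UNC0638, and 1 fell in each, Fst by 1.96 (limma adjusted p = 0.00729) and Krt18 by 2.54 on the log2 scale (limma adjusted p = 0.0424). Of 6 tested trophoblast genes, 5 had a negative difference under each treatment, and 1 was called lower under DMSO and 2 under UNC0638.
Of the 10 tested feeder markers, 2 fell in KO under DMSO (Acta2 by 1.71 and Prrx1 by 1.28) and 10 of 10 had a negative difference under both treatments, with medians of -1 and -0.83 beside -0.026 and -0.035 over all genes. The summed feeder level was 2986 to 4737 in WT DMSO, 2799 to 3703 in WT UNC0638, 1526 to 2049 in KO DMSO and 1760 to 2460 in KO UNC0638. Lum, the lowest of the list by mean, was at 0 in 11 of 12 libraries, while Col1a1 was at 282 to 611. Fibroblasts express Lamb1 and Pdgfra as well, and the part of feeder RNA in the Lamb1 difference was not tested.

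Over the 15 group means, each gene centred within its experiment on the log2 scale, the members followed each other to different degrees. Pearson's r of a member with the mean of the other 7 was 0.957 for Foxa2, 0.930 for Dab2, 0.881 for Gata6, 0.836 for Sox17, 0.731 for Pdgfra, 0.647 for Lamb1, 0.628 for Sox7 and 0.332 for Gata4. These points share libraries and controls and are a description. By the same measure r with the mean of all 8 was 0.881 for the 2-cell list, 0.773 for visceral endoderm and 0.759 for parietal endoderm. It was 0.696 for the feeder markers, 0.664 for gastrulation mesendoderm and 0.451 for the trophoblast list. The other basement membrane genes were at 0.195, the FGF and ERK genes at -0.022 and the pluripotency list at -0.800. Of 15177 genes whose largest group mean was at least 10 in each experiment, the 5 most alike were Clip2 (0.963), Wasf1 (0.958), 4932422M17Rik (0.951), Sp110 (0.939) and Gm4840 (0.939). Their sizes differed from the members': Sp110 went from 3.47 in DMSO mESC to 1817 in DMSO 2CLC, and Clip2 from 172 to 246.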

How the data were processed

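The authors trimmed reads with Trim Galore 0.6.7 and aligned them with STAR 2.7.10 to mm10, placing a read with several matches in 1 random place, and counted genes (GENCODE vM25) and repeats together with TE Counts. The deposited values are a signal, namely counts divided by DESeq2 1.34.0 size factors taken over genes and repeats (R 4.1.0, per the labels and the methods). A random placement can move reads between near-identical copies. Rows of repeats were left out here.

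The time course, washout and sorted tables gave the authors' group means, with which no error or test is possible. Their columns of fold changes and adjusted p-values were not used. In the Dppa4 table, 100% of values came back as whole reads (tolerance 0.001), 8399885 to 12710949 per library. Depth of the other libraries is not known from these tables.

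Differences in the Dppa4 experiment were tested with limma 3.58.1 in R 4.3.3 (two-sided, intensity trend, all 4 groups in 1 fit) on log2(value + 1), after a filter that kept 17258 genes, with Benjamini-Hochberg adjustment. A fold change on this scale understates the change of low genes. edgeR 4.0.16 and DESeq2 1.42.0 on the recovered reads were alternatives. On simulated data with known changes in UNC0638 v DMSO in WT (17258 genes), limma gave an adjusted p under 0.05 to 36% of 2-fold and 79% of 4-fold changes. The size needed for a call was not applied there. The changed genes were drawn above a minimum mean of reads, so these shares do not cover low members such as Gata6 and Sox7. Group means were compared on log2(mean + 1) with a minimum of 10 and a fold of 2. Replicate numbers paired the WT libraries (same-number correlations of 0.393, 0.14 and 0.678 between DMSO and UNC0638, each over 0.1) and not the KO libraries (0.392, -0.232 and -0.005).

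The 8 members and the gene lists were chosen with earlier results of these data known. Named genes were the members and, of each other list and comparison, at most 4 of those past the threshold with the largest difference, its lowest or most abundant gene, and the 5 genes most like the members.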

Additional observations from a re-analysis of the deposited data

How the results depend on the processing

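The group means have no error, so leaving out a clone and pairing by clone were not run for them. Counts of members past the fold moved with the threshold. With a pseudocount of 5 they were 0 at 24 h, 1 at 15 d and 0 in dTAG mESC v DMSO mESC. With a minimum mean of 50 they were 1 at 24 h, 1 at 15 d, 3 in Recovery v dTAG 15d, 0 in dTAG mESC v DMSO mESC and 3 in DMSO 2CLC v DMSO mESC. With a fold of 1.5 they were 4 at 24 h, 3 at 7 d, 1 in DMSO 7d v DMSO 24h, 7 at 15 d, 4 in dTAG mESC v DMSO mESC and 2 in dTAG 2CLC v DMSO 2CLC. Scaling to equal summed counts gave 1 at 7 d, and moved the median of all genes by -0.24 in dTAG 2CLC v DMSO 2CLC. Over all genes, the counts past the fold in either direction were 1051 at 24 h, 1850 at 7 d, 429 in DMSO 7d v DMSO 24h, 1132 at 15 d, 495 in Recovery v DMSO 15d, 1511 in Recovery v dTAG 15d, 1459 in mESC and 1650 in 2CLC between dTAG and DMSO, and 4837 and 4305 between 2CLC and mESC in DMSO and dTAG. In the same order they were 2862, 4165, 1811, 2479, 1853, 3295, 3239, 3969, 8252 and 7694 with a fold of 1.5, and 362, 769, 134, 510, 250, 718, 542, 681, 2795 and 2444 with a minimum mean of 50. A pseudocount of 5 gave 217 in DMSO 7d v DMSO 24h and 311 in Recovery v DMSO 15d.

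In KO v WT under UNC0638 the members called were 2 (Lamb1 and Dab2) with a pseudocount of 5, with DESeq2, with a replicate block over all 4 groups and with the 2 groups alone, and 1 to 2 when 1 library was left out. The block changed no other call of a member. Over all genes, UNC0638 v DMSO in KO had 80 calls with limma, 12 with no filter, 47 with a mean of at least 50, 37 with edgeR, 255 with DESeq2, 172 with the block over 4 groups, 0 with the block within KO (chosen after seeing the data, as was that within WT), 0 with the 2 groups alone and 2 to 373 when 1 library was left out. Most of these left-out libraries, WT libraries included, lowered that count, and leaving out KO UNC0638 replicate 1 gave the 373. KO v WT under UNC0638 had 567, with 360 at a mean of at least 50, 865 with DESeq2, 177 without WT UNC0638 replicate 2 and 195 without replicate 3. KO v WT under DMSO had 765, with 280 without WT DMSO replicate 2, 427 without replicate 3 and 362 without KO DMSO replicate 1.

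Members that were not called changed sign under some settings; the cause was not tested. With edgeR and DESeq2, Gata6 was at -0.30 (-0.2994 and -0.3004) for UNC0638 v DMSO in KO and at 0.371 and 0.356 for KO v WT in DMSO, and Pdgfra was at 0.05535 and 0.04496 for KO v WT in UNC0638. When 1 library was left out, UNC0638 v DMSO in WT ranged from -0.7954 to 0.07105 for Gata4, -0.02273 to 1.529 for Sox7 and -0.2485 to 0.3315 for Pdgfra. Gata6 ranged from -0.6694 to 1.401 for UNC0638 v DMSO in KO and from -1.336 to 0.734 for KO v WT in DMSO. KO v WT in UNC0638 ranged from -1.085 to 0.467 for Sox7 and -0.3662 to 0.4378 for Pdgfra, and the difference in response from -0.4309 to 0.4624 for Gata4 and -1.783 to 0.2873 for Gata6. These genes had 0 to 85 reads per library, which limits what can be told for them.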
